A study of Mus musculus with 30 samples.

Results

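Long intergenic RNAs detected throughout in mouse blood cells were read by 2492 of the 16181 intergenic probes of the array, lying in 1324 of its 3540 intergenic regions. Each is a 60-base probe whose name in the array design is a stretch of the mouse genome and a strand (F, forward, or R, reverse) in place of a gene symbol, and the design describes it as a lincRNA. The members were selected on detection: the scanner software had to call a probe well above background on 27 or more of the 30 arrays. How often and how strongly they were detected is therefore a description and not a finding. The 2492 probes belong to 1546 of 4607 strand-specific transcripts, and to 1047 of 2223 loci once overlapping regions were merged. All 2492 were among the 35979 probes tested, of 55681 on the array.

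RNA came from peripheral blood mononuclear cells (PBMC; lymphocytes and monocytes, isolated on Ficoll) of 6-week-old female C57Bl/6J mice. Every animal was anesthetized and received 200 µl into the tail vein, either of physiological serum or of oleic acid (OA, 1.2 µl per g of body weight), which damages lung capillaries when given intravenously. Blood was taken 1, 1.5, 3, 4, 18 or 24 h later. The serum groups held 3, 3, 2, 1, 2 and 2 arrays in that order of times, and the OA groups 3, 3, 3, 2, 3 and 3. The design counts 30 mice, so each array was taken as 1 animal. No group was left without an injection, and blood was drawn at the time of killing, so no animal was followed over time.

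Long intergenic noncoding RNAs are RNA polymerase II transcripts, usually capped and often spliced and polyadenylated, that lie between protein-coding genes and hold no long reading frame. Many are retained in the nucleus and many have low levels, and their catalogues were built from chromatin marks of active transcription and from sequenced transcripts. In blood cells a few abundant ones are well known, among them Malat1 and Neat1, which stay in nuclear bodies, and the host genes of small nucleolar RNAs such as Gas5. Transcripts can also arise on the strand opposite to a promoter or inside the ribosomal RNA units, and probes of a catalogue of regions can lie in either.

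The probes below carry the results. They are printed 5′ to 3′ as in the array design, with capitals for CpG dinucleotides and for the poly(A) signal AATAAA; positions are in mm9.

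Time course member, chr17:6521901-6521960, forward: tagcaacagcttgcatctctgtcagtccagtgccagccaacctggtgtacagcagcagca
Other member of the same transcript, chr17:6521014-6521073, forward: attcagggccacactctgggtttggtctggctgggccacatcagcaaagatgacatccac
Dancr, same 60-mer as the gene's own probe, chr5:74490275-74490334, forward: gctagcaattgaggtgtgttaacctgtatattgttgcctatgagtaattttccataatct
Dancr, upstream member, chr5:74489483-74489542, forward: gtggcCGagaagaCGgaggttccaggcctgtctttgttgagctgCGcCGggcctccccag
Ribosomal RNA unit, reverse strand, chr17:39981387-39981446: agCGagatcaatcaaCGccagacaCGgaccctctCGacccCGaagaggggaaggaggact
Ribosomal RNA unit, forward strand, chr17:39985407-39985466: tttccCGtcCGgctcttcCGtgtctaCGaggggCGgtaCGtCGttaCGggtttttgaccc
Malat1 side, chr19:5802267-5802326, reverse: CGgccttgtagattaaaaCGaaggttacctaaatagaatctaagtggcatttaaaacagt
Ifi207 side, chr1:175653663-175653722, reverse: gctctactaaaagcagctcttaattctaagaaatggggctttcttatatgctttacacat
Gas5 start, chr1:162965146-162965205, forward: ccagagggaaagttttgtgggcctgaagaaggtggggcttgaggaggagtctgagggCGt
Micos10 side, chr4:138657729-138657788, reverse: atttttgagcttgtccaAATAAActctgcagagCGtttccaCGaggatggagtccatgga
Clcf1 and Rad9a side, chr19:4210705-4210764, reverse: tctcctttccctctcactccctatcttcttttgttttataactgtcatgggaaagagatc

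A pair of members on chromosome X varied most of all between arrays. Both are shown because they share a run of 49 bases, marked here by capitals.

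chrX:92139110-92139169, reverse: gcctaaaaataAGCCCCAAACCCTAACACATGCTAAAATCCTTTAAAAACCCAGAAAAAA
chrX:92149387-92149446, reverse: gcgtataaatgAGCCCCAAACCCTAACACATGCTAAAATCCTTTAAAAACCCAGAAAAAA

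Detection was close to complete for most of the 2492 probes and just past the limit for some. Of them 1783 were well above background on all 30 arrays, 350 on 29, 199 on 28 and 160 on 27. Just outside lay 141 intergenic probes detected on 26 arrays, and 3940 were detected on 0. The first members at the limit in genome order were probes of chr1:33893475-33903900_F, chr1:63168439-63172297_F and chr1:88384134-88384902_F, whose log2 levels averaged -0.78, -1.34 and -0.89 over the 30 arrays. A level here is the log2 signal minus the array's own 75th percentile over all probes, so 0 stands for that percentile. The first probes just outside, of chr1:15839444-15840383_R, chr1:45066850-45095650_R and chr1:69531191-69570566_R, averaged -1.50, -1.53 and -1.12.

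Forward probes numbered 1229 and reverse probes 1263, and 25 members had no position in the files. The regions ran from 90 to 508115 bases with a median of 11988.5. Detection was uneven within a region. Of 1255 transcripts with 3 or more probes and at least 1 member, 104 had every probe detected, 770 had a single one and 381 lay between. The design had probes on both strands of 671 member regions, and 222 of these (33.1%) were detected on both. Member probes of the same transcript followed each other loosely: over 523 transcripts with at least 2 members, the within-transcript correlation across the 30 arrays had a median of 0.560 with quartiles of 0.277 and 0.795. These correlations share arrays and scaling and are given as a description. By chromosome, the share of intergenic probes that were members ran from 11.1% on chromosome 10 (80 of 720) to 24.2% on chromosome 19 (78 of 322), with 21.2% on chromosome 14 and 20.4% on chromosome 5.

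The name intergenic did not hold for all of them. A probe of a gene with a symbol lay within 1000 bases on the same strand for 189 of the 2467 members with a position (7.66%), against 582 of 13596 other intergenic probes (4.28%). Within 5000 bases the shares were 16.7% and 11.3%, and within 50000 bases 58.9% and 51.0%. On the opposite strand 76 members had a gene probe within 1000 bases. Of the 189, the neighbour was protein-coding for 123 and a long noncoding RNA for 63. The noncoding neighbours had 36 symbols: Dancr stood beside 9 members, Mirt1 and Tug1 beside 5 each, Gm4532 beside 4, and Mir17hg, Norad and 2610035D17Rik beside 3 each. Malat1, Gas5, Dleu2, Pvt1 and Crnde each stood beside 1.

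A further 25 members carried the same 60 bases as a probe listed separately under another name, 15 of them under a gene symbol. Among these symbols were the noncoding genes Dancr, Dleu2, Mir17hg and Pvt1, and the coding genes Man1a2, which trims mannose from glycoproteins, E2f6, a repressive E2F factor, and Timm17b, a subunit of the mitochondrial import channel. Such pairs measure the same RNA from separate spots and show the technical error. Their correlation over the arrays had a median of 0.907, with 18 of 25 above 0.8. The lowest, 0.135, belonged to the member of chr3:143541356-143617738_R and the probe BF119133. The highest, 0.978, belonged to the forward member of the ribosomal unit and the probe AK145507. The SD of the difference within a pair had a median of 0.25 on the log2 scale (0.09 to 0.78).

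A larger share of the members than of the other intergenic probes lay opposite to a promoter of an annotated gene. The 60-mers were compared with the promoters of the RefSeq table of GRCm38.p6 (32851, each from 250 bases before to 50 after a start), asking for at least 40 shared bases. The reverse complement of a promoter matched 43 members (1.73%) and 85 other intergenic probes (0.621%), and the promoter's own strand matched 22 (0.883%) and 79 (0.577%). No test was made, since detection chose the members. Genes with a member antisense to the promoter included Akap11, an anchor of protein kinase A, Gnptab, which tags lysosomal enzymes with mannose phosphate, Dcun1d1, Tgif2, Fgd5, Iqsec1 and the snoRNA hosts Snhg3, Snhg17 and Snhg20. Arhgap32, a GTPase-activating protein, had 2 such members from the reverse transcript chr9:31839533-31840971_R. Its promoter is shown because those members cover the bases in capitals, ahead of a stretch dense in CpG.

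Arhgap32 promoter, GRCm38.p6 chr9:32032053-32032352, forward: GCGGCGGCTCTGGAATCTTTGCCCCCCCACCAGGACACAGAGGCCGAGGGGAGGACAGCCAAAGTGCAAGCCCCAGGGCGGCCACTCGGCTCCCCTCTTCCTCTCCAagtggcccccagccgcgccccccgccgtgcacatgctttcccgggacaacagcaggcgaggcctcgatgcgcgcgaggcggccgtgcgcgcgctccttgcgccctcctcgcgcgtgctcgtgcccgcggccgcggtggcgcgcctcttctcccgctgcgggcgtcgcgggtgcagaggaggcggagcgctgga

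The sequence of the probes also went with detection. The mean number of CpG per 60-mer was 1.26 among members, 0.758 among the other intergenic probes and 0.793 among all other probes of the array, and 14.3%, 6.11% and 6.56% held 3 or more. It rose in steps with detection, from 0.648 for probes detected on 0 arrays through 0.779 (1 to 13 arrays), 0.919 (14 to 26) and 0.997 (27 to 29) to 1.36 on all 30. Median GC content was the same, 45.0%, among members and other intergenic probes as a whole, and 41.7% among other probes. By detection class it also differed among the intergenic probes. It was below 45.0% for those detected on 0 arrays, 45.0% in each class from 1 to 29 arrays and 46.7% on all 30. The hexamer AATAAA, the canonical poly(A) signal, stood in 3.85% of members, 3.93% of other intergenic probes and 12.6% of other probes. Its reverse complement TTTATT stood in 2.77%, 3.07% and 4.03%. Array probes for genes are placed near the 3′ end, where the signal lies, whereas probes of genomic regions need not be. Their part in detection was not tested.

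**Figure D1:**
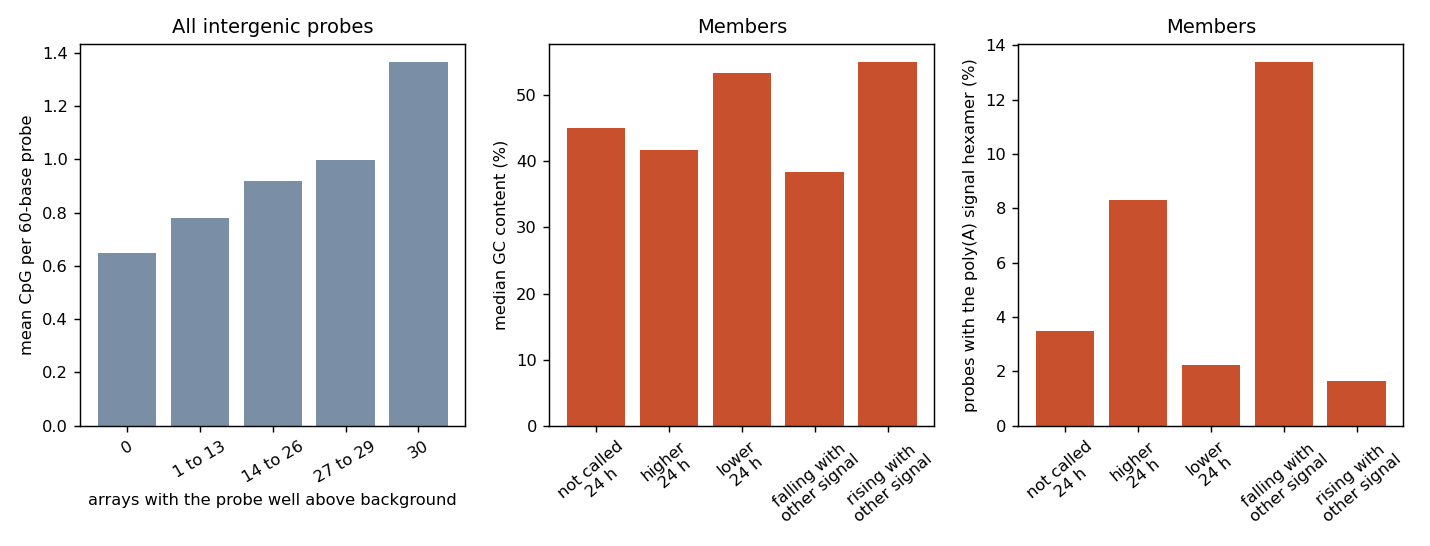
Left, mean number of CpG dinucleotides per 60-base probe for all intergenic probes, by the number of arrays on which a probe was well above background; it rises from 0.648 at 0 arrays to 1.36 at 30. Middle and right, median GC content (%) and share of probes holding the poly(A) signal hexamer (%) for members not called, higher or lower after OA at 24 h, and falling or rising with the signal of the other intergenic probes; the share is highest, 13.4%, among those that fall. Bars are values over probes and have no error bars.

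Marker genes of the labelled mononuclear cells were detected together with those of other blood cells, and the arrays differed in depth of signal. All 6 markers each of T cells, B cells, NK cells, monocytes, neutrophils and platelets passed the same detection limit as the members, as did the 4 of 6 erythroid markers that were tested, so RNA of neutrophils, platelets and red cells was present beside that of mononuclear cells. In bulk samples, fewer cells of a type and less RNA per cell cannot be told apart. The 75th percentile of signal ran from 40.2 to 152 and the share of probes well above background from 35.4% to 65.1%. The members were detected least often on both serum arrays of 24 h, 2218 and 2246 of 2492, then on OA 1.5 h replicate 1 (2297) and OA 1 h replicate 1 (2374). On the other arrays at least 2444 were detected. The median level of the members stayed between -0.25 and 0.72 on every array. It lies near the 75th percentile that the scaling sets to 0, so its steadiness is in part set by the scaling. The median of the intergenic probes outside the set moved far more, from -5.34 on OA 24 h replicate 1 to -2.45 on OA 4 h replicate 2. Between 4.85% and 48.5% of these probes were well above background on an array. Their median therefore lies near background on every array and need not reflect intergenic RNA. It was -2.70 and -3.34 on the serum arrays of 24 h and -5.34, -4.83 and -4.08 on the OA arrays of 24 h, with no overlap. An array's median correlation with the others was 0.797 for serum 24 h replicate 1, 0.835 for OA 4 h replicate 2 and 0.885 for serum 1.5 h replicate 3, and at least 0.922 for the rest. Both serum arrays of 24 h were on slide 1 and the OA arrays of 24 h on slides 5, 3 and 2, so that no slide held both groups. Slide 5 was the only slide of scan 2 and held OA arrays alone (2 of 1 h and 1 each of 3, 18 and 24 h), so that for those 5 arrays scan and treatment cannot be told apart.

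**Figure D2:**
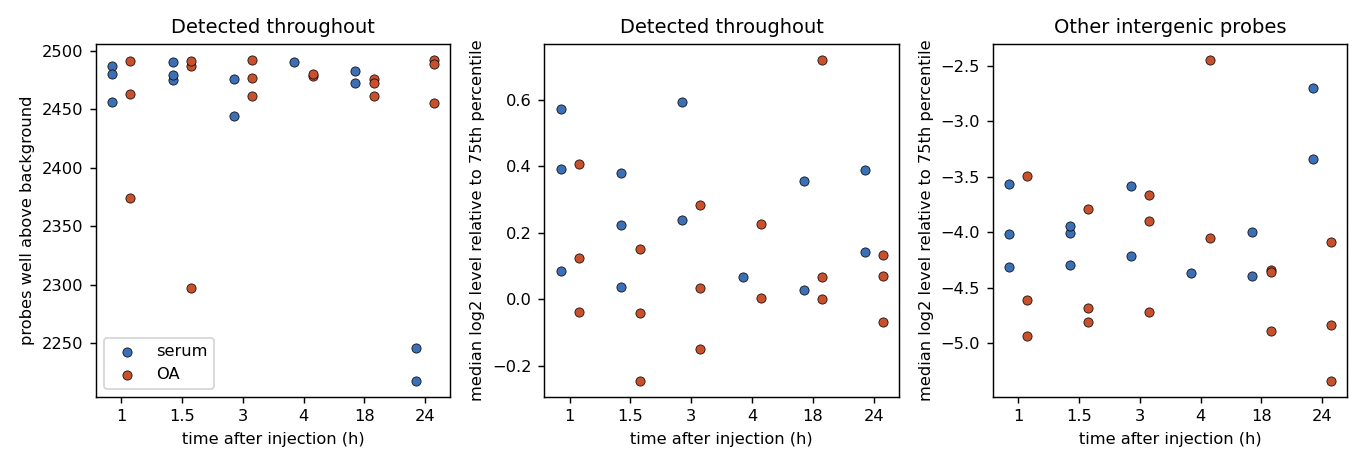
Each point is 1 array, by time after injection (h), serum in blue and OA in red. Left, number of the 2492 members well above background, lowest on both serum arrays of 24 h (2218 and 2246); middle, median log2 level of the members; right, median log2 level of the other intergenic probes, both relative to the array's 75th percentile.

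In the first 18 h no member was called between OA and serum. At 1, 1.5, 3, 4 and 18 h the limma fit with Benjamini-Hochberg adjustment over all probes called 0 of 2492 members and 0.0% of all probes at a threshold of 0.05. The smallest adjusted p among members was 0.825, 0.489, 0.575, 0.388 and 1.00. Without adjustment, a p under 0.05 was shown by 114 members (4.57%), 359 (14.4%), 223 (8.95%), 91 (3.65%) and 13 (0.522%) in that order of times, and the shares among all probes were 5.25%, 9.76%, 7.54%, 10.4% and 1.15%. The median SE of a difference was 0.44, 0.44, 0.49, 0.66 and 0.49 on the log2 scale. The median difference of the members, OA minus serum, was -0.23, -0.22, -0.39, -0.07 and -0.05, beside -0.09, 0.08, 0.13, -0.11 and -0.07 over all probes. The 4 h contrast rests on a single serum array, whose spread is assumed to be that of the other groups.

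Single members with the smallest p show how far such differences went. At 1.5 h the member of chr5:35893909-35899497_R, 2934 bases from a probe of Trmt44, a tRNA methyltransferase, had levels of 0.05, 1.15 and 0.94 in serum and -2.15, -2.11 and -0.66 in OA (difference -2.35 ± 0.59 SE, adjusted p = 0.489). A member of the region chr9:56910620-56919667_F, 9615 bases from a probe of the phosphatase gene Ptpn9, had 1.13, 2.10 and 2.17 in serum and -0.83, -1.14 and 0.30 in OA (difference -2.36). In the opposite direction, a reverse member of chr14:62280837-62283960, 20159 bases from a probe of the noncoding gene Dleu2 on its strand, had 0.29, -0.01 and 0.11 in serum against 1.63, 1.68 and 1.31 in OA (difference 1.41 ± 0.38 SE). The groups did not overlap for any of these 3, which were picked for their small p, and none passed the adjustment. At 3 h a reverse member of chr6:47687025-47728525, 31540 bases from a probe of the small RNA Rn4.5s, had -0.03 and 0.98 in serum and -1.52, -1.36 and -1.97 in OA (difference -2.09, adjusted p = 0.575). At 1 h a member of chr4:59093718-59108018_F, on the strand opposite to Shoc1, differed by -1.52 ± 0.44 SE.

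The mean over the 6 times and the change between early and late times gave no member either. For the mean, 0 members and 0.00278% of all probes were called, and 514 members (20.6%) against 13.8% of all probes had an unadjusted p under 0.05. The smallest was that of chr13:19618491-19618836_R, with a mean difference of -0.85 ± 0.17 SE and an adjusted p of 0.235. Its levels at 3 h were 0.11 and 0.38 in serum and -1.45, -0.58 and -0.88 in OA, and at 1 h 0.40, -0.07 and -0.33 against -1.05, -1.36 and -0.72. The groups did not overlap at either time, in a member picked for its small p. The 5 members of a forward transcript beside Atp6v0a2 (chr5:125191922-125192221), a subunit of the vacuolar proton pump, lay together with mean differences of -0.71 to -0.42, none called. For the OA difference at 18 and 24 h minus that at 1 to 4 h, 0 members and 0.0% of all probes were called, with 135 members (5.42%) against 14.8% of all probes at an unadjusted p under 0.05. Its smallest adjusted p, 0.175, was shown by the member of chrX:150159252-150181275_R (difference -1.98 ± 0.42 SE), and it became 0.0365 without OA 4 h replicate 1 and 0.0370 without serum 24 h replicate 2.

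At 24 h, 350 of the 2492 members were called, against 29.6% of all probes and 36.2% of the other intergenic probes tested (2209 of 6095). After OA 217 members rose (8.71%, beside 13.2% of all probes) and 133 fell (5.34%, beside 16.4%). The share of members called lay below that of the array as a whole in both directions, and no test of that difference was made. Without adjustment 670 members (26.9%) had a p under 0.05 against 45.4% of all probes, and serum and OA levels did not overlap for 1201 members (48.2%) against 55.7% of all probes. The calls lay in 269 transcripts, 48 of which had at least 2 called probes, and in 4 of those the probes went in both directions. The members' median difference was -0.28 and that of all probes -0.06. On both serum arrays 75 members were not well above background, and 23 of them were called, all higher after OA. The rule lets a member be dim on at most 3 arrays, so these had to be brighter elsewhere, and they are no evidence of a direction.

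The 24 h calls depended on single arrays, among them 1 serum array and OA 24 h replicate 1. Without serum 24 h replicate 1, which stood apart from the other arrays, 1 member was called, and 349 of the 350 kept their sign while the median size of their difference went from 1.51 to 0.93. That member, singled out after its values were seen and lying in chr3:143541356-143617738_R, was not called with all arrays (-1.99, adjusted p = 0.0326 without the array, and -0.93, adjusted p = 0.0975 with it), and it is the one whose twin probe BF119133 followed it least. Without serum 24 h replicate 2 there were 682 calls, and without OA 24 h replicate 1, 2 or 3 there were 6, 125 and 151. With slide as a fixed block 0 members were called by limma, 311 had an unadjusted p under 0.05, the smallest adjusted p was 0.0576, and all 350 kept their sign. With the signal of the other intergenic probes as a covariate limma called 0 members and 4 probes over the whole array. Of the members 98 had an unadjusted p under 0.05, and 349 of the 350 kept their sign with a median size of 0.82.

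The split into higher and lower depended on the scaling. Of the called members 62.0% were higher with the 75th percentile, 11.9% of 488 with the median of always-detected probes, 50.4% of 492 with quantile normalization, 59.3% of 452 with normexp background correction and 38.5% of 439 in the authors' value table. The median difference of all probes moved with it, from -0.06 to -0.66, 0.20, -0.23 and 0.09 in that order, and the members' median minus that of all probes was -0.21, -0.21, -0.48, 0.07 and -0.32. Some marker genes moved at the same time. The summed level of the monocyte markers was 25.4 to 87.2 in serum and 139 to 195 in OA at 24 h, with 4 of 6 called higher, and 2 of 6 B cell markers were called higher. Of the T cell, NK cell, neutrophil, platelet and erythroid markers 0 were called at 24 h. Of the 6 lung epithelium markers Scgb1a1 alone passed the detection limit of the members, and Sftpc, Sftpa1, Sftpb, Sftpd and Epcam did not. Their sum was 9.16 and 18.3 on the serum arrays of 24 h, 0.388 to 0.662 on the OA arrays of 24 h and at most 5.24 on all others. Of the 4 lung epithelium markers tested, 3 were called lower after OA. The part of these marker genes in the 24 h calls was not tested.

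**Figure D3:**
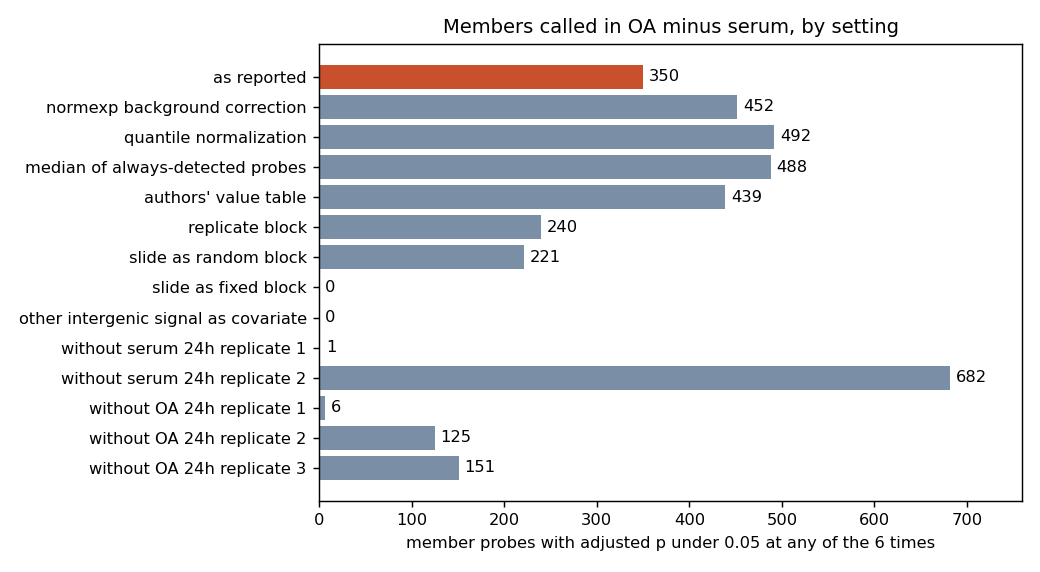
Bars give the number of member probes with an adjusted p under 0.05 (limma, Benjamini-Hochberg) for OA minus serum at any of the 6 times, with all choices as reported (350, red, all at 24 h) and with 1 choice changed (blue-grey). The number goes to 0 with slide as a fixed block or the other intergenic signal as a covariate and to 1 without serum 24 h replicate 1.

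Several of the members with the smallest p that rose at 24 h lay close to coding genes. The member of chr1:175653557-175671940_R shares 42 bases with a probe of Ifi207, an interferon-inducible PYHIN protein, and followed it over the arrays (r = 0.986, the same arrays and scaling). Its levels were -3.18 and -0.75 in serum and between 1.06 and 1.66 in OA, a difference of 3.27 ± 0.65 SE (adjusted p = 0.0117), and that of the Ifi207 probe was 2.91 ± 0.64 (adjusted p = 0.0144). The reverse member of chr4:138657728-138687028, 368 bases from a probe of Micos10, a subunit of the mitochondrial cristae complex, had -2.54 and -1.43 in serum and 0.29, -0.23 and 0.16 in OA. It was not well above background in serum, and the fitted difference was 2.06 ± 0.39 SE (adjusted p = 0.0104, the smallest of all members).

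Further members were not well above background on either serum array, so that their serum levels are only bounds. The member of chr3:68867193-68876128_F, opposite to Kpna4, an importin, went from -2.94 and -2.26 in serum to -0.44, -0.23 and -0.56 in OA (fitted difference 2.19 ± 0.43 SE). The member with the 60-mer of E2f6 went from -2.53 and -1.22 to 0.46, -0.20 and -0.03 (1.95 ± 0.40 SE), whereas the probe listed under E2f6, with the same 60 bases, gave a smaller difference of 1.15 (adjusted p = 0.0410). The Micos10, Kpna4 and E2f6 members, dim on both serum arrays, had to be brighter elsewhere by the detection rule and are no evidence of a direction. In these members and that of Ifi207 both serum arrays lay below all OA arrays, and replicate 1 was the lower of the pair. Without that array their differences were 1.51 (Micos10 side), 1.85 (Kpna4 side), 1.29 (E2f6) and 2.05 (Ifi207), and none was called.

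The member of chr8:48476637-48492537_F lay 91316 bases from the nearest gene probe on either strand, that of Trappc11. It had 1.72 and 3.45 in serum and 5.15, 5.31 and 5.18 in OA at 24 h, a difference of 2.62 ± 0.53 SE (adjusted p = 0.0125), and 1.76 without serum 24 h replicate 1, not called. At 3 h its levels were 3.58 and 2.91 in serum and 5.12, 4.80 and 5.25 in OA (difference 1.81, adjusted p = 0.629). The groups did not overlap at either time, in a member picked for its small p at 24 h. At 4 h the order was the reverse, with means of 4.81 in serum and 2.69 in OA.

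Among the members that fell, chr19:4210704-4211111_R lies between Rad9a, of the DNA damage checkpoint clamp, and Clcf1, a cytokine of the IL-6 family. It had 3.33 and 0.67 in serum and -0.47, -0.93 and -0.74 in OA (difference -2.72 ± 0.56 SE, adjusted p = 0.0137), and -1.39 without serum 24 h replicate 1, not called. Both serum arrays lay above all OA arrays, replicate 1 far above replicate 2. The member at the start of Gas5, a snoRNA host, covers the gene's promoter on its strand and, read in reverse, that of Zbtb37. Its levels were 0.82 and -0.09 in serum and -2.33, -2.03 and -1.92 in OA (difference -2.46 ± 0.55 SE, adjusted p = 0.0145), and -2.01 without serum 24 h replicate 1, not called. A probe listed under Gas5, 1 of 3 on the array, went the other way, with a difference of 1.62 ± 0.47 (adjusted p = 0.0231).

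Called members of either direction differed in composition, which was described for this scaling only and not tested. The 217 that rose had a median GC content of 41.7%, 0.917 CpG per probe and AATAAA in 8.29%, and the 133 that fell had 53.3%, 1.11 and 2.26%. The 2142 that were not called had 45.0%, 1.30 and 3.50%.

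Loci with several members give the closest view, since their probes read neighbouring bases. The first is a stretch of chromosome 17 where mm9 holds a copy of the ribosomal RNA precursor, whose own strand there is the forward one. It held 20 members. All 10 reverse members, in chr17:39980297-39981446, were called at 24 h by limma, beside 29.6% of all probes. Differences were 1.06 to 1.95 with a median of 1.30, and the adjusted p ran from 0.0170 to 0.0471. These probes read neighbouring bases on the same arrays and correlated with each other at 0.760 to 0.976, so they are not 10 independent results. Their mean level was 2.40 and 3.42 on the serum arrays and 3.98, 4.25 and 4.67 on the OA arrays. The 10 forward members, in chr17:39982106-39985688, had differences of -0.34 to 0.79 and none was called. Their mean level was 6.53 and 7.71 in serum and 7.08, 7.35 and 7.53 in OA. The reverse members were higher in 10 of 10 under each of the 4 other scalings, with 3, 2, 10 and 1 called (always-detected median, quantile, normexp, authors' table), whereas the forward members went from 8 of 10 higher to 1, 1, 9 and 1, with 2, 2, 1 and 1 called. When serum 24 h replicate 1 was left out the reverse differences were 0.39 to 1.36, 10 of 10 above 0, with none called, and 1 of 10 forward members was above 0. At the other times the reverse members' median difference was -0.36, 0.14, 0.08, -0.65 and 0.05.

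Around Malat1, the nuclear RNA of splicing speckles, 7 reverse members lay in chr19:5795752-5802326. Their mean level was 2.94 and 4.15 on the serum arrays of 24 h and 4.97, 5.04 and 4.95 on the OA arrays. Differences were 1.16 to 1.68 and 6 of 7 were called, but the 7 correlated with each other at 0.594 to 0.971 and are not independent. Malat1's own probe gave 1.28 ± 0.40 (adjusted p = 0.0281). All 7 were higher under every scaling, with 1, 1, 7 and 1 called in the order above. With serum 24 h replicate 1 left out their median was 0.89, all 7 stayed above 0 and none was called. At 3 h all 7 were also above 0, from 0.13 to 1.13, and at 4 h all were below, from -1.15 to -0.22, none called. The 3 forward members of chr19:5795690-5797464, opposite to the gene, did not move together: -1.61 (adjusted p = 0.0722), 2.40 (adjusted p = 0.0205, called) and 0.13. They correlated with each other across the arrays at -0.32 to 0.43. The called one, not well above background on the serum arrays, had -3.45 and -3.16 in serum and -1.08, -1.23 and -0.41 in OA; of the 3, 2 were higher and 1 under the always-detected median, quantile normalization and in the authors' table, and the call was lost without serum 24 h replicate 1 (2.25).

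Dancr, a noncoding RNA that hosts a snoRNA, had 9 forward members in chr5:74489423-74490334, and they split along the gene. The 3 nearest to the Dancr probe, at 0, 60 and 120 bases, were called with differences of 1.86, 1.72 and 1.33. From 189 to 852 bases upstream the differences were -0.16, 0.31, 0.92, 0.55, -0.09 and -0.25, none called. The nearest had -2.08 and -0.62 in serum and 0.61, 0.32 and 0.61 in OA, and the one at 792 bases -0.72 and -0.38 against -0.77, -0.72 and -0.44. The first pair of groups did not overlap and the second did. Correlations among the 9 across the arrays ran from -0.33 to 0.95. Of the 9, 6 were higher, and 4, 7, 7 and 7 under the other scalings. Leaving out serum 24 h replicate 1 put the nearest at 1.13, with 5 of 9 above 0 and none called.

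Other noncoding neighbours showed smaller or fewer differences at 24 h. Of 5 members beside Tug1, a broadly expressed nuclear and cytoplasmic lncRNA, 1 was called, with the largest difference (1.56, not well above background in serum), and the range was 0.54 to 1.56 with 5 of 5 higher (3 of 5 with the always-detected median). The 3 members in Norad, which binds Pumilio proteins, had 0.99 to 1.19, just short of the threshold (smallest adjusted p = 0.0565), and followed each other closely (r of 0.958 to 0.978). Norad was higher in 3 of 3 under every scaling and all 3 were called with normexp. Of 3 members beside Mir17hg, host of the miR-17-92 cluster, 2 were called (1.34 and 1.49, the third 0.57), with 2 of 3 higher under the always-detected median. None of the 5 members beside Mirt1 was called by limma (-0.65 to 0.58, 3 above 0, and 0 of 5 under the always-detected median). Beside Gm4532 2 of 4 fell, by 2.89 and 1.61 on the log2 scale, the others being -0.89 and -0.27, and 1 of 4 was higher under quantile normalization and in the authors' table. In the fit lacking serum 24 h replicate 1 none of the members beside Tug1, Norad, Mir17hg, Mirt1 or Gm4532 was called.

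**Figure D4:**
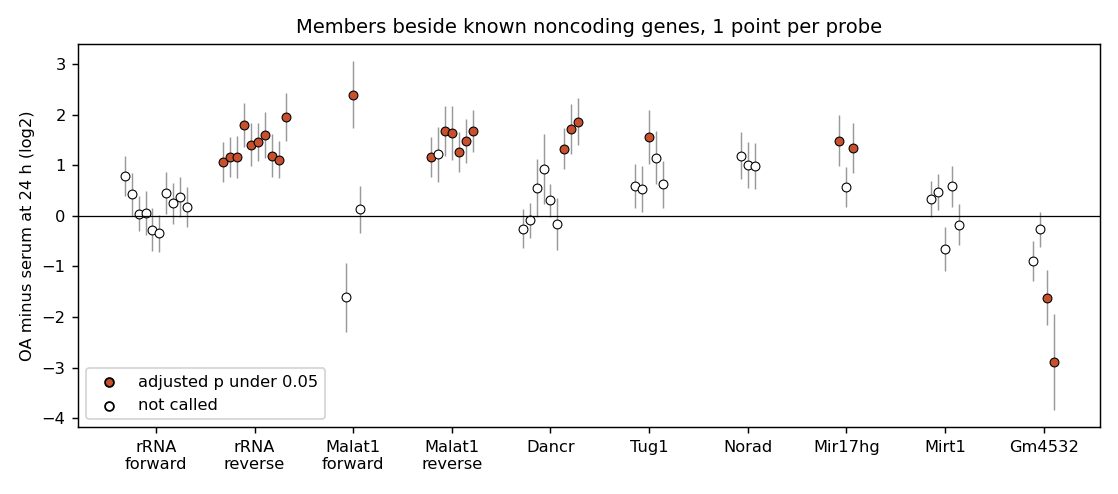
Each point is 1 member probe, its OA minus serum difference at 24 h (log2) with the SE as a vertical line, in genome order within a locus; filled points have an adjusted p under 0.05. All 10 reverse members of the ribosomal unit are filled and none of its 10 forward members, and in Dancr the 3 filled points are those nearest to the gene's own probe.

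The noncoding genes with symbols give the setting for these loci. Of a list of 54 long noncoding RNAs, 40 were on the array, 35 were tested and 26 were well above background on at least 27 arrays. Each gene was read by 1 probe, also where the array held several. At 24 h 16 of 35 were called, 12 higher and 4 lower, beside 29.6% of all probes, with a median difference of 0.58 against -0.06. The predominance of higher calls depended on the scaling: with the always-detected median 4 were higher and 5 lower, with quantile normalization 10 and 2, with normexp 12 and 5, and 10 and 1 in the values of the authors. The 12 were Malat1, Neat1 (0.94 ± 0.34), Gas5, Snhg3, Snhg6, Snhg12 (1.66 ± 0.51), Snhg15 (1.57 ± 0.43), Dancr (1.67 ± 0.41), Mir17hg, Sra1, Ftx and Zfas1. Gas5, Zfas1, Dancr and the Snhg genes carry snoRNAs in their introns. The 4 lower ones, Meg3, Dnm3os, Mirg and Mhrt, were detected on 9, 3, 26 and 6 arrays. At the other 5 times 0 of 35 were called. Without OA 24 h replicate 1 limma called 0 of 35 at 24 h, with 16 at an unadjusted p under 0.05. Without OA 24 h replicate 2 or 3 it called 4 and 6. The limma fit lacking serum 24 h replicate 1 called 0 of them, and 1 had an unadjusted p under 0.05.

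A single member differed across times, and it did so in serum and in OA alike. The F test across the 6 serum groups called 1 of 2492 members, beside 0.0473% of all probes (17), and that across the OA groups called 1, beside 0.164% (59). Both were the forward member of chr17:6426800-6528950 at chr17:6521901-6521960 (adjusted p = 0.0125 and 0.00624). Its level was 0.08 ± 0.09 (SD, n = 3) in serum and 0.09 ± 0.30 (n = 3) in OA at 1 h. It was -0.56 ± 0.43 and -0.40 ± 0.35 at 1.5 h, -0.78 ± 0.17 and -0.96 ± 0.50 at 3 h, and -0.92 (1 array) and -0.92 ± 0.21 at 4 h. At 18 h it stood at 2.26 ± 0.39 (n = 2) and 1.76 ± 0.33 (n = 3), and at 24 h at -0.20 ± 0.76 (n = 2) in serum, with 1.14, 0.77 and 1.39 in OA. All 5 arrays of 18 h lay at or above 1.39, and the highest OA value of 24 h was also 1.39. Each array before 18 h was at most 0.41. The OA minus serum difference was called at 24 h (1.31 ± 0.38 SE, adjusted p = 0.0237) and at no other time. No member was called by the F test for a change of the OA difference across the times (0.00556% of all probes, smallest adjusted p 0.172). In that test 165 members (6.62%) had an unadjusted p under 0.05, against 17.0% of all probes.

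The second member of the same transcript showed no such course. Its group means stayed between -0.93 and 0.21, with adjusted p of 0.892 and 0.705 in the F tests. With slide as a fixed block the adjusted p of the first was 0.0553 across serum times and 0.0729 across OA times. Leaving out serum 18 h replicate 1 or 2 gave 0.232 and 0.0787 across serum times, and across OA times every array left out gave 0.00105 to 0.0241. Over the 30 arrays the genes whose course was most like it were Cdc123 (Pearson 0.955, Spearman 0.949), a chaperone that assembles translation factor eIF2, then Tardbp (0.858 and 0.887), an RNA-binding protein of splicing, Cr2 (0.845 and 0.887), the complement receptor of B cells, Baz1a (0.841 and 0.770) and Zfp975 (0.832 and 0.895). The longest run of bases shared with the Cdc123 probe was 9. These values rank likeness over arrays that share scaling and are given without a test.

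**Figure D5:**
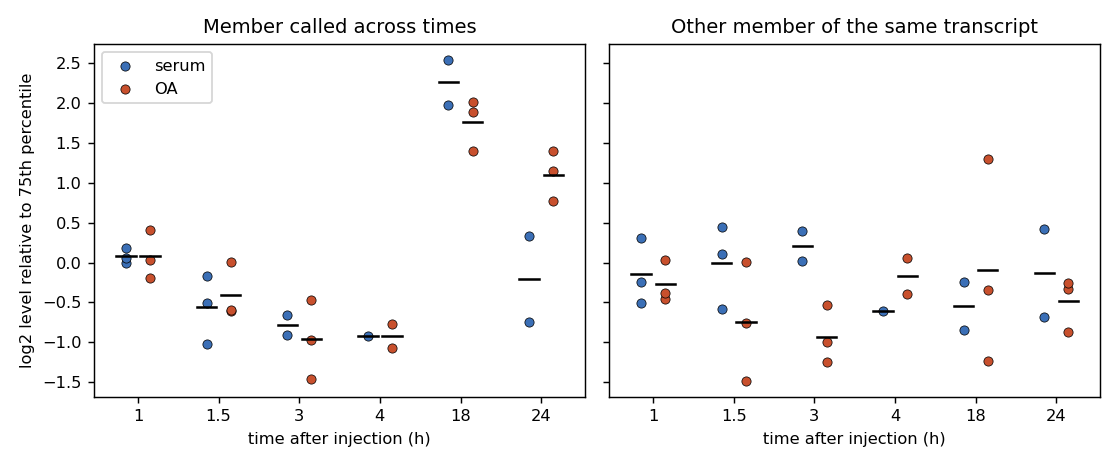
Log2 level relative to the array's 75th percentile, by time after injection (h); points are arrays, serum in blue and OA in red, and lines are group means. Left, the member called across times, highest at 18 h (2.26 in serum, 1.76 in OA); right, the other member of the same transcript, whose means stay between -0.93 and 0.21.

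The members also differed in how they moved with the intergenic probes at large. The signal of the other intergenic probes, their median on each array, was added to the fit as a covariate, so that its slope is read within the 12 groups. That median lies near background on every array, as given above. It was called for 308 members (12.4%), against 32.6% of all probes and 45.5% of the other intergenic probes tested, which make up the covariate. Of the 308, 181 rose with the signal (7.26%, beside 20.5% of all probes) and 127 fell (5.10%, also below the share of all probes). This split depended on the choices made. It was 831 rising and 22 falling with the always-detected median, 93 and 167 with slide as a fixed block, 163 and 28 when replicate 1 or replicate 2 of OA 4 h was left out, and 178 and 8 without the 3 arrays of low correlation. The 181 were rich in GC (median 55.0%) and CpG (1.98 per probe) with AATAAA in 1.66%, and the 127 were poor in both (38.3% and 0.701) with AATAAA in 13.4%. The smallest p belonged to chr1:138442536-138520766_R, 1.63 ± 0.23 SE per log2 unit (adjusted p = 0.000149). Its level was 1.23 and -0.03 on the serum arrays of 24 h and -2.39, -1.23 and 0.09 on the OA arrays. A reverse member of the Dancr region, 917 bases from the gene on the other strand, had a slope of 1.17 ± 0.20 and a 24 h difference of -2.27, opposite to the forward members beside Dancr. Of the members called at 24 h, 92 were also called for this signal: 48 were higher after OA and fell with it, and 44 were lower and rose with it, and no other combination occurred. The signal itself was lower on every OA array of 24 h than on the serum arrays of 24 h. Both results also use the same arrays, so the match of directions is a description and no separate evidence.

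Variation between arrays was modest for most members. The SD over the 30 arrays had a median of 0.57 (0.25 to 1.64), beside 0.70 over all probes tested. The probes tested include ones detected on as few as 3 arrays, whereas members were selected on detection. The lower SD of the members is therefore a description and not a finding. The steadiest, chr12:110003268-110030953_R, lay between Yy1 and Slc25a29 and ran from 0.33 to 1.24 with an SD of 0.25. The most variable were the chromosome X members printed above, chrX:92149320-92151107_R (SD 1.64) and chrX:92139043-92140820_R (SD 1.61), which correlated at 0.989 over the 29 arrays that measured both. The second had 2.56, 2.69 and -0.14 in serum at 1 h, 1.04 and 3.72 in serum at 3 h, 1.65 and -1.71 in serum at 18 h, and 2.98, 0.06 and 1.66 in OA at 24 h. Arrays of the same group lay far apart. Serum and OA overlapped at 1 h, 18 h and 24 h, and at 3 h both serum arrays lay above all OA arrays (0.78 or lower). Since the pair shares most of its bases, the probes cannot tell the regions apart.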

How the data were processed

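Agilent 1-colour mouse arrays were scanned and read by Feature Extraction 10.5.1.1, per the file headers. The deposited intensity values used are that software's processed signals, from which it had already subtracted background. The authors' deposited value table, log2 by comparison with the scanner files, was an alternative; no source used here gives its centring or background correction, its column medians were 5.37 to 5.39, and each of its 30 columns correlated most with its own array. From the intensities, control and outlier spots were left out (91 to 1408 outliers per array, no spot saturated), spots of a probe were averaged, and log2 signal minus the array's 75th percentile was used. Probes well above background on at least 3 arrays were kept (35979).

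limma 3.58.1 (R 4.3.3) fitted the 12 treatment-by-time groups over the 30 arrays (18 residual degrees of freedom, 4.11 prior, median residual SD 0.63), with Benjamini-Hochberg adjustment over all probes of a contrast and a threshold of 0.05. The script was tested on simulated data. The number of arrays limits precision. Positions are in mm9, per the file headers; gene names came from RefSeq tables of GRCm38.p6 by accession (26762 probes), symbol (3819) or synonym (639).

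The members and lists were chosen with earlier results of these data known. Named members are those called, up to the 10 smallest p per contrast; the 3 smallest p per treatment contrast; the 5 largest and 5 smallest SD; up to 3 at each side of the detection limit; regions with several members or members on both strands; members nearest to a gene probe; and the 5 smallest p for the covariate. The list of loci beside noncoding genes and of identical probes was added after values were seen. Alternatives were other scalings, background correction, filters, slide, replicate number or intergenic signal in the model, 1 probe per gene, and arrays left out in turn. The result of 1 member named by this rule is not reported here.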

Additional observations from a re-analysis of the deposited data

How the results depend on the processing

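Among the 21 single member values no difference reversed. The F tests of the chr17 member have no sign and could not reverse. With slide fixed 13 of the 21 were no longer called, and with the intergenic covariate 11 of 20. The split of calls into directions turned with some choices. At 24 h it went from 217 higher and 133 lower to 58 and 430 (always-detected median) and 169 and 270 (authors' table). For the covariate it went from 181 rising and 127 falling to 93 and 167 (slide fixed). For the noncoding list it went from 12 and 4 to 4 and 5 (always-detected median). Members called at any time (350) numbered 221 with slide as a random block, 0 with slide fixed, 0 with the intergenic covariate, 191 with 1 probe per gene (fewer members tested) and 2 without the 3 arrays of low correlation; leaving out 1 array gave 1 to 682. Across serum times (1) the counts were 3 (always-detected median), 6 (quantile), 2 (detected on at least 15 arrays), 0 (slide fixed), 2 (slide random) and 8 (authors' table), and 0 to 81 leaving out 1 array. Across OA times (1) they were 6, 3, 3, 0, 2 and 14 in that order, 2 with normexp and 2 without the 3 arrays, and 1 to 4 leaving out 1 array. For the covariate (308) they were 853 (always-detected median), 768 (quantile), 1519 (normexp), 174 (1 probe per gene), 22 (authors' table) and 186 (without the 3 arrays), and 134 to 376 leaving out 1 array. The 16 noncoding genes at 24 h became 9 (always-detected median), 0 (slide fixed), 0 (covariate) and 0 (without the 3 arrays), and 0 to 19 leaving out 1 array. The mean contrast gave 0 throughout and the late minus early one 0 to 53; serum 24 h replicate 2 left out gave both that 53 and the 81 across serum times, serum 18 h replicate 1 or 2 gave the 0 across serum times, and OA 1 h replicate 1 gave the 134. Apart from fewer samples or probes, the cause was not tested. The alternatives on the noncoding list were chosen after seeing the data.

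Same-numbered arrays of serum and OA did not deviate together in a steady way (correlations of -0.521 to 0.395). With so few arrays per group this cannot exclude a pairing of animals by number, and the main fit used none. With the replicate number as a block, 240 members were called at any time and 9 noncoding genes at 24 h. Without serum 4 h replicate 1 there is no 4 h, mean or late value. Requiring 30 or 24 arrays gave 1783 or 2910 members. Low signal over background limits the members near the detection limit.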
